A study of Mus musculus with 4 samples.

Results

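The interferon-inducible GTPase genes described here are 10 of the 55536 mouse genes in the tables, taken by symbol from a fixed list. The list holds 6 guanylate-binding protein (GBP) genes, namely Gbp2, Gbp3, Gbp4, Gbp5, Gbp7 and Gbp9, and 4 immunity-related GTPase (IRG) genes, namely Igtp, Irgm1, Irgm2 and Iigp1. All 10 were found under 1 identifier each and all passed the filter on low counts. They were measured by total RNA-seq, which keeps RNA with and without a poly(A) tail, in CD3 T cells of the spleen of male B6CASTF1/J mice aged 66 days. In B6CASTF1/J, an F1 hybrid, the mother is C57BL/6 and the father CAST/EiJ, so each autosomal gene has 1 allele of either strain. The labels give 4 biological replicates of 1 group, here libraries 1 to 4, each made from 300 ng of RNA with added ERCC spike-in RNAs, and no stimulus or control group. They name 1 donor identifier for all 4 and do not say outright that separate animals were used, so the spread between libraries may be partly technical.

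GBP and IRG proteins are the large and the mid-sized GTPases that cells make in response to interferons, above all interferon-gamma. GBP proteins assemble on membranes of vacuoles that hold parasites or bacteria, and on bacteria in the cytosol, where they open the vacuole and feed caspase-driven inflammasomes. Among the IRG proteins, effectors such as the product of Iigp1 (Irga6) coat and break the vacuole of Toxoplasma, whereas the regulators Irgm1, Irgm2 and Igtp (Irgm3) sit on the host cell's own membranes and hold the effectors inactive there. Both families are best known in macrophages and fibroblasts. In mouse T cells, Irgm1 is known to protect dividing CD4 T cells from death under interferon-gamma.

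The induction of these genes by interferons runs through promoter elements called GAS and ISRE, and the factor IRF1 binds ISRE-type elements. The promoter windows are shown because they hold the letters of these elements. In the RefSeq promoter table (GRCm38.p6, 250 bases before to 50 bases after the start of transcription), 7 of the 10 genes were matched, with 8 promoters. Gbp4, Gbp9 and Iigp1 had no entry. Below, each line gives the sequence in the direction of transcription, with the matches to the ISRE core in capitals, searched as GAAANNGAAA on both strands (TTTCNNTTTC on the other).
Gbp5, chr3:142496739-142496808, plus strand: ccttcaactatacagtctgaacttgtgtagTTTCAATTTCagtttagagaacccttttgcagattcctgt
Gbp7, chr3:142530253-142530322, plus strand: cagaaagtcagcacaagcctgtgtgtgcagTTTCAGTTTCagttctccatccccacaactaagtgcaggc
Gbp3, chr3:142559969-142560043, plus strand: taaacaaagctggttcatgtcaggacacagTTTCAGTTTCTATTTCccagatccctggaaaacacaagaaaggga
Gbp2, chr3:142620574-142620631, plus strand: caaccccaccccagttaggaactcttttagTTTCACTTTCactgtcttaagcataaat
Irgm1, chr11:48871428-48871457, minus strand: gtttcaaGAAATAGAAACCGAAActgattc
Igtp, chr11:58199492-58199555, plus strand: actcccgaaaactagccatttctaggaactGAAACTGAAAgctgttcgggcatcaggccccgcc
Irgm2, chr11:58214883-58214952, plus strand: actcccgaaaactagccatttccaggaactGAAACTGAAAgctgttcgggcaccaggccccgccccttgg

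All 7 matched genes held the ISRE core in a promoter (7 of 8 promoters, the second promoter of Gbp3 having none), against 3.44% of the 32851 promoters in the table. By symbol, this was 7 of 7 genes against 3.99% of 27025 symbols. The first capital base lay 165 bases before the RefSeq start in Gbp5, 53 in Gbp7, 45 in Gbp3, 59 in Gbp2, 30 in Irgm1, 34 in Igtp and 64 in Irgm2. In Gbp3 and Irgm1 the capitals hold 2 overlapping matches. In the 4 GBP promoters the TTTCNNTTTC form stood in the direction of transcription, and in the 3 IRG promoters the GAAANNGAAA form. The GAS letters, TTCNNNGAA, which read the same on both strands, were in the promoters of Gbp5, Gbp7, Igtp and Irgm2, 4 of 7 genes, against 8.30% of the promoters (9.55% of symbols). No GAS match overlapped an ISRE core match in these promoters. In Igtp the GAS match began 45 bases before the start and in Irgm2 75 bases before it, in both cases just upstream of the ISRE core. A match is a description of letters and not a measured binding site.

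**Figure D1:**
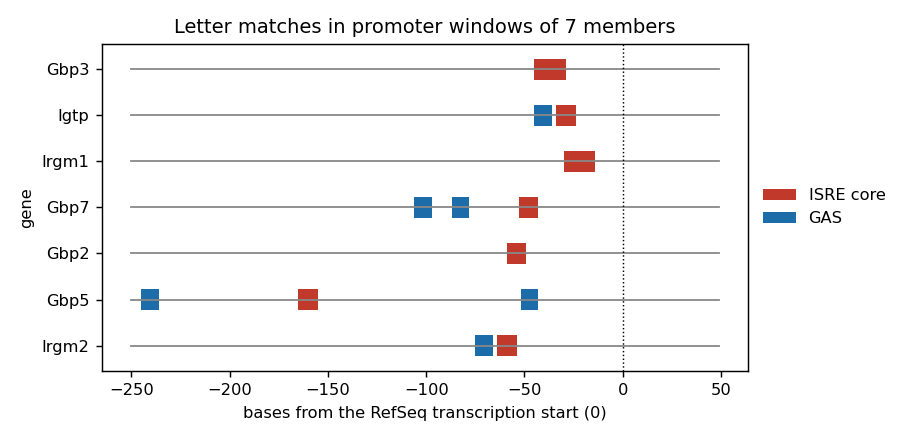
Positions of the ISRE core (red) and GAS (blue) letter matches in the promoter windows of 7 genes, in bases from the RefSeq start of transcription (0). Each grey line is 1 window with a match. The ISRE core matches of 6 genes lie within 64 bases of the start, and that of Gbp5 begins 165 bases before it.

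The promoters of Igtp and Irgm2 are near copies of each other. In their best local alignment, which can leave out ends that match poorly, they were identical in 247 of 271 aligned columns (91.1%). The longest exact run was 61 bases. The longest run shared by any other pair of these promoters was 13 bases, between Gbp7 and Gbp3. In the GENCODE M21 annotation the capitals of Gbp2 and Irgm1 lie inside annotated exons. In Irgm1 this exon belongs to the noncoding transcript Irgm1-203, which starts upstream of both coding ones.

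The genes form clusters in the mm10 genome. Gbp5 (142493978 to 142522344), Gbp7 (142530342 to 142550149), Gbp3 (142560026 to 142573209) and Gbp2 (142620602 to 142638008) follow one another on the plus strand of chromosome 3. Gbp4 (105115767 to 105139586) and Gbp9 (105077630 to 105139539) overlap on the minus strand of chromosome 5 and share 60 exon bases at their 5′ ends. Igtp (58199556 to 58207591) and Irgm2 (58199618 to 58222782) overlap on the plus strand of chromosome 11. There the transcript Irgm2-201, which begins inside Igtp, shares 162 exon bases with it. Irgm1 (48861968 to 48871683) is on the minus strand of the same chromosome, and Iigp1 (60376027 to 60392634) on the plus strand of chromosome 18.

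All 10 genes were detected in every library of these T cells, for which the labels name no stimulus. Levels are given as TPM, a relative unit scaled to transcript length in which genes can be set side by side. As means of 4 libraries they ran from 54.0 TPM for Gbp3 to 1.47 TPM for Iigp1. In the order of protein-coding genes by mean TPM, Gbp3 stood above 95.1% of them and Iigp1 above 55.8%. The 6 GBP genes together had 186.8, 178.5, 184.9 and 185.2 TPM in libraries 1 to 4 (mean 183.8 ± 3.65, SD, n = 4). The 4 IRG genes together had 61.1, 60.9, 62.4 and 58.9 TPM (mean 60.8 ± 1.47, SD, n = 4).

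**Figure D2:**
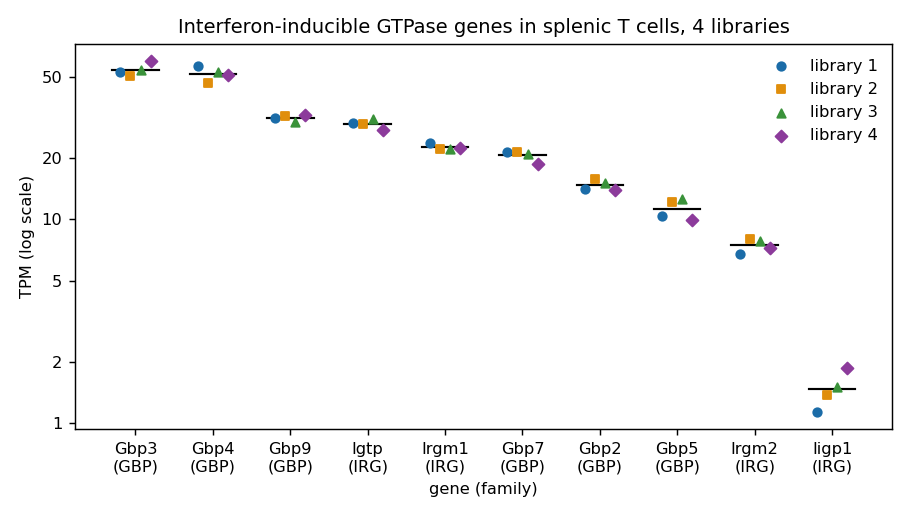
TPM of each gene in libraries 1 to 4 (points, log scale), with the mean of 4 libraries as a bar, ordered by mean. Gbp3 and Gbp4 overlap at the top, Gbp9 and Igtp overlap below them, and Iigp1 lies apart at 1.14 to 1.86 TPM.

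Among the GBP genes, Gbp3 and Gbp4 were the most abundant. Gbp3, whose protein is recruited to the Toxoplasma vacuole in mouse cells, had 52.7, 50.3, 53.6 and 59.4 TPM in libraries 1 to 4 (mean 54.0 ± 3.83, SD, n = 4). Gbp4 had 56.6, 46.7, 52.7 and 50.8 TPM (mean 51.7 ± 4.12). Their ranges overlapped, and each made up close to the same share of the GBP sum, 29.4% ± 1.83 for Gbp3 and 28.1% ± 1.75 for Gbp4. Gbp9, which also reaches the parasite vacuole in the mouse, had 31.5, 32.2, 29.9 and 32.3 TPM (mean 31.5 ± 1.11). Library 3 was its lowest, by a small margin. Gbp7, known in mouse macrophages for bringing oxidase and autophagy factors to vacuoles, had 21.5, 21.4, 20.98 and 18.8 TPM (mean 20.7 ± 1.29). Gbp2, a lipid-anchored GBP that restrains Toxoplasma in mice, had 14.1, 15.8, 15.1 and 13.97 TPM (mean 14.7 ± 0.851). Gbp5, the lipid-anchored member linked to the NLRP3 inflammasome, had 10.4, 12.1, 12.6 and 9.93 TPM (mean 11.3 ± 1.29), with libraries 2 and 3 above libraries 1 and 4. Gbp2 and Gbp5 were thus the lowest GBP genes on the list, at 8.03% ± 0.615 and 6.14% ± 0.772 of the GBP sum.

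Among the 4 listed IRG genes, nearly all of the signal came from the 3 regulators, whose sum was 59.3 ± 1.68 TPM, against 1.47 ± 0.301 TPM for the effector gene Iigp1 (SD, n = 4). Igtp had 29.6, 29.3, 31.1 and 27.3 TPM (mean 29.3 ± 1.55), and Irgm1 had 23.6, 22.2, 22.01 and 22.4 TPM (mean 22.6 ± 0.718). Igtp was above Irgm1 in every library. Irgm2 had 6.76, 7.99, 7.82 and 7.24 TPM (mean 7.45 ± 0.562), lowest in library 1. Iigp1 had 1.14, 1.37, 1.5 and 1.86 TPM on 44, 53, 60 and 64 counts. It took 2.42% ± 0.543 of the IRG sum, against 48.2% ± 1.39 for Igtp, 37.1% ± 1.53 for Irgm1 and 12.3% ± 0.871 for Irgm2.

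The order of the 10 genes by mean TPM was Gbp3, Gbp4, Gbp9, Igtp, Irgm1, Gbp7, Gbp2, Gbp5, Irgm2 and Iigp1. Neighbours in this order were compared within each library on log2(TPM + 1). In 7 of 9 neighbour pairs the higher gene was higher in 4 of 4 libraries and the ranges did not overlap. The exact two-sided sign-flip permutation test then gave p = 0.125, the smallest that 4 libraries allow, and 0.161 adjusted over the 9 pairs. The 2 exceptions were Gbp3 over Gbp4, with a mean log2 ratio of 0.06 ± 0.135 (SD, n = 4), higher in 3 of 4 libraries (exact permutation p = 0.375), and Gbp9 over Igtp, with 0.10 ± 0.120, also higher in 3 of 4 libraries (exact permutation p = 0.25). The widest gap was that between Irgm2 and Iigp1, a mean log2 ratio of 1.78 ± 0.176, and the narrowest of the 7 was Irgm1 over Gbp7, at 0.12 ± 0.0896. The order itself was taken from these values, so the signs are a description.

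None of the 10 genes passed the test of varying between the 4 libraries beyond what genes of like abundance do. By edgeR's goodness-of-fit test against the trended dispersion with Benjamini-Hochberg adjustment, 0 of the 10 were called at an adjusted p under 0.05, against 188 of all 13118 genes tested (1.43%). At an unadjusted p under 0.05 there were also 0 of 10, against 644 of all genes (4.91%), and 0 of 10 under each of the 9 other settings, at either threshold. The unadjusted p ran from 0.295 for Gbp4 to 0.832 for Gbp3. A p that misses the threshold does not show that the levels were equal: the SD of log2 CPM, the count relative to library size, over the 4 libraries was 0.0494 for Gbp3, 0.108 for Gbp7 and 0.255 for Iigp1. The median SD was 0.0977 over the 10 genes and 0.121 over all tested genes, with 0.106 over the 9672 tested genes inside the abundance range of the 10. The SD was below the median of all tested genes in 9 of 10 genes, Iigp1 with its 44 to 64 counts being the exception, and below that of genes in their abundance range in 7 of 10.

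**Figure D3:**
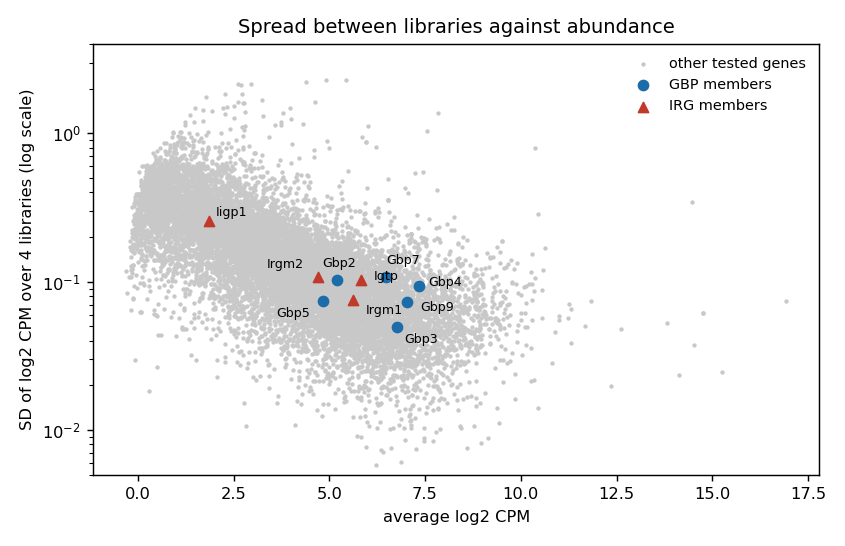
SD of log2 CPM over 4 libraries (log scale) against average log2 CPM for every tested gene (grey), with the GBP genes as blue circles and the IRG genes as red triangles. The 10 genes lie within the grey cloud, and Iigp1, the least abundant, has the widest spread of them at 0.255.

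The small deviations of the 10 genes were mostly below 0 in library 4, as were those of several other lists, the 12 general T cell markers included. Those of effector and memory T cell genes and of the other GBP and IRG genes were mostly not. On log2 CPM with TMM scaling, 8 of 10 genes were below their own 4-library mean there (median -0.09, against 0.00 for all tested genes), with values from -0.15 for Igtp to -0.03 for Gbp3. Gbp9, at 0.01, and Iigp1, at 0.32, were not below. Of the 12 T cell markers, 10 were below their mean in library 4 (median -0.08), and the medians of the naive T cell and ubiquitin genes there were -0.06 and -0.12. The median of the helper and CD8 lineage genes there was -0.05. The effector and memory T cell genes went the other way, with 3 of 12 below their mean in library 4 (median 0.06). So did the nearest relatives, with 2 of 5 other GBP genes (median 0.02) and 4 of 10 other IRG genes (median 0.03) below. Below their mean there were 13 of 15 type I interferon targets (median -0.07) and 4 of 5 giant and other interferon GTPases (median -0.12). The same held for 8 of 10 ATG8 conjugation genes (median -0.03). In each of libraries 1, 2 and 3, 6 genes were above and 4 below, with medians of 0.04, 0.03 and 0.04. With spike-in library sizes the sign in library 4 flipped: 10 of 10 genes were above their mean (median 0.06, with Igtp at 0.00), while the median of all tested genes was itself shifted by 0.15. Spike-in scaling moves all genes of a library alike, so places relative to the median of all genes do not depend on it. The goodness-of-fit test, which called none of the 10 genes, covers the spread of a gene over all libraries. A deviation in 1 library, or a shift shared by several genes, was not tested. Gbp3 shows a further difference of scale, since library 4 had its highest TPM, 59.4, but a log2 CPM 0.03 below its mean. In that library the short transcript Gbp3-205 took 28.5% of the gene's TPM, its highest share, against 19.0% to 25.2% in the others.

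**Figure D4:**
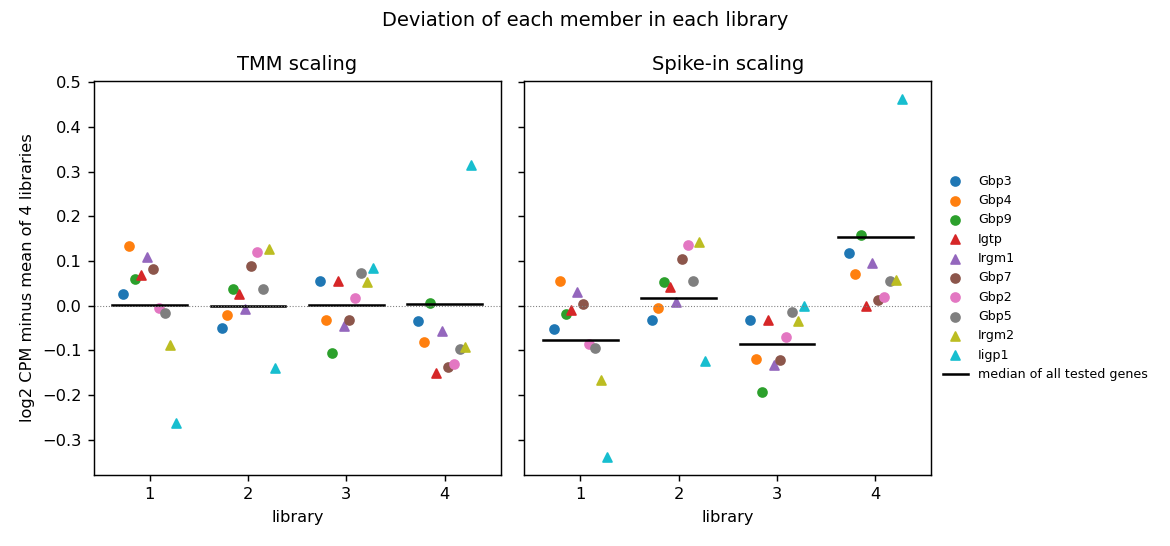
Difference of log2 CPM from the gene's mean over 4 libraries, by library, with TMM scaling (left) and spike-in scaling (right). Circles are GBP genes, triangles IRG genes, and black bars the median of all tested genes. In library 4, 8 of 10 genes lie below 0 with TMM scaling and 0 of 10 with spike-in scaling, where the bar itself is at 0.15.

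Other cell types in the sort also differed in library 4. The summed level of 12 B cell markers was 169.3 TPM there, against 16.1, 20.4 and 15.0 TPM in libraries 1 to 3, and 8 of 8 tested B cell markers were called, against 0 without library 4. The erythroid markers, led by the globin genes, summed to 634.1 TPM in library 4, against 35.6, 62.8 and 16.1 TPM (3 of 3 tested were called, also without library 4). Neutrophil markers stood at 37.7 TPM in library 2, against 11.7, 14.1 and 12.2 TPM in libraries 1, 3 and 4 (3 of 4 tested were called, against 0 without library 2). Monocyte and macrophage markers, the cell type in which GBP and IRG genes are best known, summed to 35.3 to 43.9 TPM, with 0 of 11 tested called and the complement gene C1qa at 2.11 to 2.89 TPM. Natural killer markers summed to 29.6 to 40.5 TPM, dendritic markers to 22 to 27.1 TPM, of which Bst2 (also an interferon target) made up 19.3 to 22.2 TPM, and stromal and endothelial markers to 51.0 to 61.7 TPM, of which Pecam1, known in T cells too, made up 50.1 to 60.9 TPM, with Pdgfra at 0 counts. The 12 T cell markers summed to 3660 ± 46.2 TPM, and 0 of 12 were called. The part of these other cells in the GTPase levels was not tested, and in bulk RNA fewer cells of a type and less RNA per cell cannot be told apart.

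Most transcripts of the 10 genes had counts in at least 1 library, and the split between coding and noncoding transcripts differed between genes. The annotation lists 40 transcripts, of which 4 were at 0 counts in every library and 25 passed the filter on low counts. The leading transcript was annotated as protein-coding in 8 of 10 genes. Gbp2 was a single-transcript gene here, with Gbp2-201 at 100% of its TPM. Igtp-201 took 82.0% ± 6.15, Irgm1-201 66.1% ± 4.54 and Gbp7-201 57.8% ± 4.16 of the TPM of their genes (SD, n = 4). Gbp3 was split between Gbp3-203 at 36.1% ± 4.91, Gbp3-202 at 35.7% ± 2.87 and the short Gbp3-205 at 23.3% ± 4.33. The least even were Irgm2-202, at 85.9%, 63.6%, 100% and 69.1% of Irgm2 in libraries 1 to 4, and Iigp1-202, at 64.6%, 56.9%, 69.8% and 28.1% of Iigp1. Their means were 39.9% and 16.9% in the second quantification, against 79.6% and 54.9% in the first. In the second the noncoding Iigp1-203 led Iigp1 at 49.2%.

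The 2 exceptions were the neighbours on chromosome 5. In Gbp4 the leading transcript was Gbp4-202, annotated for nonsense-mediated decay, the pathway that destroys RNAs with an early stop codon. It had 23.9, 17.9, 19.6 and 19.6 TPM, or 39.1% ± 2.15 of the gene, and protein-coding transcripts made up 50.1% ± 1.51. The coding Gbp4-201 is nearly as long, 4538 bases against 4509 bases, and the deposited posterior SD of the Gbp4-201 count was 157.2 to 210.4 on counts of 539.3 to 884.6, so the split between both is uncertain. In Gbp9 the leader was Gbp9-203, annotated as a retained-intron transcript. It had 17.4, 17.6, 16.2 and 16.4 TPM, or 53.7% ± 1.96 of the gene, with 45.9% ± 2.33 for the coding transcripts of Gbp9. Whether reads given to Gbp9-203 in this total RNA came from unspliced RNA was not tested. In the second quantification Gbp4-202 took 44.3% and Gbp9-203 47.5%, so both led there too, while Gbp4-201 stood at 0.209% ± 0.260 in the second and 18.1% ± 4.56 in the first. Gene-level counts were much firmer, with a posterior SD of at most 0.923% of the count in any of the 10 genes.

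**Figure D5:**
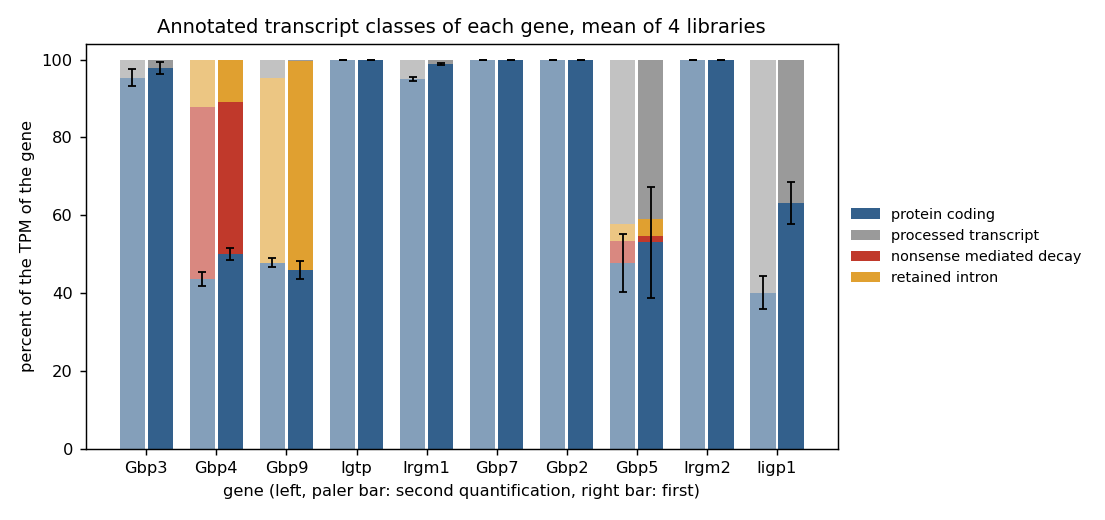
Share of each annotated transcript class in the TPM of its gene (stacked bars, mean of 4 libraries), with the second quantification as the left, paler bar and the first as the right. Error bars are the SD of the protein-coding share. Coding transcripts make up 43.7% of Gbp4, 47.8% of Gbp9 and 40.1% of Iigp1 in the second quantification, against 50.1%, 45.9% and 63.2% in the first.

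Gbp5 had a wide swing of transcripts between libraries. The noncoding transcript Gbp5-204 begins upstream of the other Gbp5 transcripts, at position 142493978 of chromosome 3, against 142496900 for the coding Gbp5-201. Gbp5-204 had 3.85, 6.43, 6.59 and 2.12 TPM in libraries 1 to 4, and took 36.9%, 53.2%, 52.2% and 21.3% of the gene. Gbp5-201 had 5.84, 5.05, 5.36 and 7.15 TPM. Libraries 2 and 3 were high in the noncoding and library 4 in the coding transcript, while the count of the gene as a whole did not pass the test (edgeR adjusted p = 1.00). In the second quantification the same order of libraries held for Gbp5-204, with shares of 40.7%, 50.4%, 46.6% and 31.6%.

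The same goodness-of-fit test was run on transcripts. It called 0 of the 25 tested transcripts of these genes, against 693 of all 31961 tested (2.17%). At an unadjusted p under 0.05 there were 3 of 25, against 2521 of all transcripts (7.89%). These were Gbp5-204 (edgeR adjusted p = 0.161), Gbp9-201 (edgeR adjusted p = 0.349) and Igtp-203 (edgeR adjusted p = 0.400). For Gbp5-204 the unadjusted edgeR p was 0.195 in the second quantification, 0.256 without the filter and 0.263 without library 4. It stayed under 0.05 without library 1, 2 or 3. Gbp9-201, a coding transcript, had 3.59, 3.30, 2.52 and 6.52 TPM, highest in library 4. Igtp-203, also coding, had 1.05, 1.53, 4.26 and 2.00 TPM, highest in library 3. The deposited posterior SD of its count was 23.8 to 35.3 on counts of 29.98 to 123.1, which the test does not take into account. With the counts of the second quantification 2 of 27 tested transcripts were called, against 844 of all 36268 (2.33%), namely Irgm2-202 (edgeR adjusted p = 2.01e-09) and Igtp-203 (edgeR adjusted p = 0.0315). Without the filter on low counts 2 of 36 tested transcripts were called, Gbp3-201 and Irgm2-203, against 2851 of all 75742 (3.76%). The deposited posterior SD was 56.42 to 71.98 on counts of 0 to 54.99 for Gbp3-201. For Irgm2-203 it was 29.65 to 39.95 on counts of 0 to 176.46, so the counts of both transcripts are uncertain. Irgm2-202 had 0.305, 7.20, 2.49 and 3.69 TPM in the second quantification and 5.81, 5.08, 7.82 and 5.0 TPM in the first, and the libraries high and low in the first were not those in the second. The 3 coding Irgm2 transcripts are 3459 to 3528 bases long, and Irgm2-202 and Irgm2-203 start close together, at 58215028 and 58215008 of chromosome 11.

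The 2 deposited quantifications gave all 10 genes the same rank, but higher levels in the second. Gbp3 averaged 79.7 TPM in the second and 54.0 TPM in the first, Gbp4 74.2 and 51.7 TPM, Gbp9 37.0 and 31.5 TPM, and Igtp 34.7 and 29.3 TPM. Irgm1 averaged 27.9 and 22.6 TPM, Gbp7 23.9 and 20.7 TPM, Gbp2 17.1 and 14.7 TPM, and Gbp5 15.3 and 11.3 TPM. The second value over the first ran from 1.11 for Irgm2 (8.26 and 7.45 TPM) to 1.80 for Iigp1 (2.64 and 1.47 TPM), against a median of 1.32 over 12939 genes, with 4 of the 10 genes above that median. A level in TPM is thus a level within 1 quantification. When TPM was scaled to protein-coding genes alone, Gbp3 stood at 152.7 and Iigp1 at 4.14 TPM, since abundant noncoding RNAs share the deposited total.

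The 10 genes share part of their sequence with relatives, which bears on how reads were assigned. Of all 31-base words in their annotated transcripts, the share also found in another gene was 18.3% in Gbp9 (chiefly Gbp8 and Gbp6), 15.9% in Igtp (all with Irgm2), 14.7% in Gbp7 (10.8% with the pseudogene Gm43802, which overlaps it), 14.3% in Gbp4 and 10.7% in Irgm2. In the other 5 genes it was 2.20% in Irgm1 to 6.90% in Iigp1. Reads were assigned to the C57BL/6 genome, while IRG genes are known to be highly polymorphic between C57BL/6 and wild-derived strains such as CAST/EiJ. Loss or misassignment of CAST/EiJ reads was not tested.

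Relatives of both families were expressed as well. None of them was called, against 188 of all 13118 genes tested (1.43%). At that share, 0 calls in lists this short are no result about their genes. The same share stands beside the calls in the lists that follow. Of 5 other GBP genes, 3 had a mean of at least 1 TPM and 0 of 5 tested were called. Gbp6 had 19.8 ± 0.312 TPM, Gbp8 12.4 ± 0.896 TPM, and Gbp10 2.24, 4.99, 2.87 and 6.95 TPM. Of 12 other IRG genes, 10 had at least 1 TPM and 0 of 10 tested were called. They were led by 9930111J21Rik2 (29.9 ± 2.80 TPM), Tgtp1 (29.1 ± 1.79 TPM), 9930111J21Rik1 (23.2 ± 0.663 TPM), Gm12185 (21.1 ± 1.53 TPM) and Tgtp2 (20.0 ± 1.71 TPM). Tgtp1 and Tgtp2, effector IRG genes, are near-identical copies, so their separate values are uncertain. Below them were Gm12187 (10.3 ± 1.23 TPM), Gm5431 (7.69 ± 1.13 TPM), Irgq (4.73 ± 0.116 TPM), Gm12250 (4.00 ± 0.869 TPM) and Irgc1 (2.61 ± 0.537 TPM). The effector Iigp1 thus had a lower level than the effector genes Tgtp1 and Tgtp2 in every library. Of the further interferon GTPases, Ifi47 (47.1 ± 3.58 TPM), the giant GTPase genes Gm4070 (45.1 ± 2.48 TPM) and Gvin1 (31.1 ± 3.24 TPM), Mx1 and Mx2, 0 of 5 were called, Gm4070 coming nearest (edgeR adjusted p = 0.0518, and 0.00142 on the counts of the second quantification).

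The pathway that induces these genes was expressed throughout. Of 12 genes of the interferon-gamma receptor pathway, all had at least 1 TPM. Among them were the kinase gene Jak1 (171 ± 6.08 TPM) and Irf1 (160 ± 11.6 TPM), with Ifngr1 at 70.0 ± 5.59 TPM and Ifngr2 at 15.4 ± 0.690 TPM for the receptor chains. Only Irf8 was called, 1 of 12, with 9.07 TPM in library 4 against 4.26 to 4.87 TPM in the others (edgeR adjusted p = 0.00268), a call lost without library 3, without library 4 or without the filter on low counts. Of the interferon genes, Ifng had 2.98, 5.37, 5.76 and 5.05 TPM and was not called, nor were the type I receptor genes Ifnar1 (45.9 ± 2.43 TPM) and Ifnar2 (23.4 ± 2.56 TPM). Ifnb1, Ifna2 and Ifna4 had 0 counts in every library, which allows up to 3 counts or 0.174 to 0.206 CPM.

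Other targets of interferon-gamma were led by B2m (853 ± 19.1 TPM), Nlrc5 (144 ± 7.46 TPM) and Tapbp (140 ± 2.19 TPM), which serve antigen presentation on MHC class I. Of these 15 genes, 11 were tested and 1 was called: Ciita, the activator of MHC class II genes and a B cell gene too, had 2.92 TPM in library 4 against 0.26 to 0.35 TPM in the others (edgeR adjusted p = 8.5e-12). Without library 4 it was not called. Irf8 and Ciita were both high in library 4, the library with the highest B cell markers. The part of B cells in their levels was not tested. The chemokine genes Cxcl9 and Cxcl10 were at 0.163 ± 0.102 and 0.767 ± 0.265 TPM, and Ido1 at 0 counts. Of 15 targets of type I interferon, 0 were called. Their most abundant members were Bst2 (20.96 ± 1.22 TPM), Xaf1 (17.7 ± 3.21 TPM) and Irf7 (15.97 ± 3.03 TPM), and their median deviations were 0.13, 0.14, -0.19 and -0.07 in libraries 1 to 4, against 0.04, 0.03, 0.04 and -0.09 for the GTPase genes listed first.

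The proteins that act with GBP and IRG proteins had RNA as well. Of 10 genes of the ATG8 conjugation system, which directs GTPases to vacuoles, all had at least 1 TPM and 0 were called, led by Map1lc3b (83.3 ± 5.59 TPM), Gabarap (62.6 ± 4.84 TPM) and Gabarapl2 (40.0 ± 4.13 TPM). Of 5 ubiquitin genes, 0 were called, and they included Sqstm1 (136 ± 6.17 TPM) and Rnf213 (45.8 ± 1.55 TPM). Of 8 caspase and inflammasome genes, 5 were tested and 1 was called. Gsdmd, the pore-forming gasdermin gene, had 42.9 ± 1.65 TPM and Pycard 20.9 ± 4.14 TPM. Aim2, the sensor of cytosolic DNA that GBP proteins can expose to it, had 11.3, 9.64, 24.3 and 25.9 TPM (edgeR adjusted p = 2.7e-05), with libraries 3 and 4 high and libraries 1 and 2 low, and was called without any 1 library too. Nlrp3, Il1b and Il18, genes of myeloid inflammasomes, were each under 1 TPM in every library.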

How the data were processed

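Totals over mouse genes were 15765009, 17280908, 16382457 and 14540725 counts in libraries 1 to 4, with 0.299% to 0.347% of counts on 97 spike-ins. The 26248 numeric identifiers, which name no gene, took at most 8.75e-05% and stayed out of library sizes and tests. The assembly was mm10 with GENCODE M21, per the deposited text files. The aligner and quantifier names were not given in the sources used here. Per library, the authors deposited expected counts (estimated counts, rounded here to whole numbers), TPM, FPKM, the percent of each transcript in its gene and the posterior SD of each count from a transcriptome alignment, per the file headers, and estimated counts and TPM from a second quantification. Each library was quantified alone. The deposited TPM includes noncoding RNAs in its total.

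Genes varying between libraries were sought with edgeR 4.0.16 (R 4.3.3; goodness of fit, intercept only, TMM, trended dispersion, common biological coefficient of variation 0.0938) over all genes that passed the filter on low counts, after it was tested on simulated data. Log2 CPM used a prior count of 2. Ratios used an exact sign-flip permutation test on log2(TPM + 1). Alternatives were DESeq2 1.42.0 size factors, no filter, spike-in library sizes, a common dispersion, the second quantification, other pseudocounts, FPKM and leaving out each library. A floor is 3 counts and covers counting error only, since PCR copies are not told apart. Named were all members, the other GBP and IRG genes with at least 1 TPM, and of each other list the 3 highest and every gene called, apart from items not reported here. Ifngr1, Ifngr2, Ifng, the genes at 0 counts, the chemokine and inflammasome genes under 1 TPM, C1qa and single transcripts were named after their values were seen. The members and lists were chosen with earlier results of these data known, and the transcript test after the data were seen.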

Additional observations from a re-analysis of the deposited data

Results flagged for a closer look

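Of 29 values tested for 1 library standing apart among 4, 1 met Dixon's 95% criterion, and chance gives about 1 in 20. Igtp-201, the leading transcript of the IRG regulator gene Igtp, took 84.1%, 85.6%, 72.8% and 85.5% of the gene's TPM in libraries 1 to 4. The gap from library 3 to the nearest other library was 0.887 of the whole range, above the critical value for 4 samples. The coding transcripts Igtp-202 and Igtp-203 made up the rest, with Igtp-203 at 13.7% in library 3 against 3.54% to 7.32% in the others. The deposited posterior SD of the Igtp-203 count was 35.3 on 123.1 counts in library 3, and 23.8 to 31.4 on 29.98 to 50.6 counts in the others. The split between the Igtp transcripts is thus uncertain. In the second quantification Igtp-201 was also lowest in library 3, at 80.3% against 89.4% to 92.0%. The gene as a whole had 31.1 TPM in library 3 against 27.3 to 29.6 TPM in the others.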

How the results depend on the processing

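No paired analysis was possible because the labels give 1 group, so no samples of 2 groups share a replicate number. The count of the 10 genes that varied was 0 under all 9 other settings, leaving out each library included. Over all genes the count was 188, against 120 with spike-in library sizes, 353 with a common dispersion and 116 to 148 without 1 library. Over all transcripts it was 693, against 2851 of 75742 tested without a filter (3.76%), 844 of 36268 with the second quantification (2.33%) and 473 to 496 without 1 library. Of the transcripts of the 10 genes 0 were called, against 2 without a filter (Gbp3-201 and Irgm2-203), 2 with the second quantification (Igtp-203 and Irgm2-202) and 0 without any 1 library. The 9 neighbour ratios kept their sign under the other pseudocount, FPKM, the second quantification and each left-out library. For the 7 pairs of 1 sign in every library, only the second quantification could have changed it. The mean levels moved by less than their SD in all 40 cases of a gene and a left-out library. Leaving out 1 library can never move a mean by more than that, so this is no test of robustness. All 10 mean levels moved by more than their SD with the second quantification and with scaling to protein-coding genes, and the shares of 7 of 10 leading transcripts moved with the second quantification. Of 40 deviations, 17 moved with spike-in scaling and 0 with the second quantification. The cause of these differences was not tested. Depth limits the precision of Iigp1, at 44 to 64 counts.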
